A study of Mus musculus with 9 samples.

Results

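Hprt and 8 other genes of purine metabolism (Aprt, Adk, Pnp, Ppat, Gart, Impdh1, Impdh2 and Prps1) were examined in RNA-seq libraries of cells sorted from embryoid bodies. The 9 genes were found by their symbols among the 56691 genes of each deposited table, and all 9 passed the filter on low counts, as did 16903 genes in all. Hprt was included because its level over the groups was unusual, so its values are given as a description without a test. The other 8 were included for their place in the same pathway, with earlier results of these data known, and they were tested within a fit of all genes.

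The cells were mouse pluripotent stem cells (PSCs) of the line BVSC, which carries the reporters Blimp1-mVenus and Stella-CFP, and they were differentiated into embryoid bodies. They carried either the DOX-inducible vector p20-Nrf1, which expresses mouse NRF1 (NRF1 OE), or the empty vector p20 (Ctrl), and the cells of all groups were given 1.5 µg/mL DOX from day 2 to day 5. At day 5 the cells were sorted by flow cytometry into BV+ cells, which were mVenus positive and were called primordial germ cell-like cells (PGCLCs), and BV- cells, which were called somatic cells. There were 2 libraries of BV+ NRF1 OE, 2 of BV+ Ctrl, 3 of BV- NRF1 OE and 2 of BV- Ctrl. The transgene was brought in by lentivirus. The study's methods call the replicates biological, without saying for each library how the cultures were separated, so p-values measure the spread between these libraries. Total counts per library lay between 13702162 and 19625460. Nrf1 itself, whose reads may come from the gene or the transgene, measured 95.7 and 99.4 CPM (counts scaled to a common library size) in BV+ NRF1 OE against 91.1 and 90.4 in BV+ Ctrl, and 119.3 to 125.6 in BV- NRF1 OE against 99.1 and 105.2 in BV- Ctrl. The NRF1 OE libraries lay above Ctrl in both populations, but by 1.08-fold in BV+ (adjusted p = 0.489 by edgeR) and 1.20-fold in BV- cells (adjusted p = 0.0718), and neither difference was called. In BV- cells it was called with offsets for GC content and length (adjusted p = 0.0197) and without BV- NRF1 OE replicate 1 (0.0381). NRF1 OE is therefore used here as the name of the labelled group, since these counts do not show by the test that Nrf1 RNA was raised.

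Cells obtain purine nucleotides by building them step by step from phosphoribosyl pyrophosphate (PRPP) or by salvage of free bases and nucleosides. PRPP is used by both routes: PPAT takes the first committed step of de novo synthesis, while HPRT joins PRPP to hypoxanthine or guanine and APRT joins it to adenine. Hprt lies on the X chromosome, is the classical selection marker of mouse embryonic stem cells in thioguanine and in HAT medium, and is often used as a reference gene for RT-PCR.

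The windows upstream of the start sites are shown for the gene that stands apart, Hprt, for its closest partner in salvage, Aprt, and for Impdh2, a gene called in more than 1 comparison. The sequences are from RefSeq on GRCm38.p6, which differs from the GRCm39 build behind the counts, and each is written 5′ to 3′ on the strand of the gene, with 250 bases before the start site and 10 from it. Capitals mark the GC box GGGCGG, or CCGCCC where it lies on the opposite strand, and in Impdh2 also the E-box CACGTG. Hprt is at chrX:52987828-52988087 on the plus strand, Aprt at chr8:122576898-122577157 on the minus strand and Impdh2 at chr9:108560186-108560445 on the plus strand.
Hprt: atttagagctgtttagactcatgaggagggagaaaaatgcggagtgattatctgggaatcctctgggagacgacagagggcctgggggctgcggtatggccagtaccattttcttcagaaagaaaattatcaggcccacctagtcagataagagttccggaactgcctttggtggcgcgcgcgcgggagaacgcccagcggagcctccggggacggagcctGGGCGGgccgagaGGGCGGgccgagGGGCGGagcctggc
Aprt: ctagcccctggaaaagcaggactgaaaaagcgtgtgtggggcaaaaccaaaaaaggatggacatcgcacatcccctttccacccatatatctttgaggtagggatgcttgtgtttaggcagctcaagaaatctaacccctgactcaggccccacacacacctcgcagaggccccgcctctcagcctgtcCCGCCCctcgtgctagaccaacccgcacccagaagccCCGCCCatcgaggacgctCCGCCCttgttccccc
Impdh2: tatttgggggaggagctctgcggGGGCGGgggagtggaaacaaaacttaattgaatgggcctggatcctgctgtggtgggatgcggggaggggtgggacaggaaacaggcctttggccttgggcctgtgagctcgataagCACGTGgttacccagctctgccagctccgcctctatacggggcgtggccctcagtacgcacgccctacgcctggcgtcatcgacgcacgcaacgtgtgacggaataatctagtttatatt

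NRF1 binds a GC-rich palindrome, of which the 8 letters GCGCATGC were searched. Windows of 300 bases, with 250 before the start site and 50 from it, were at hand for all 9 genes (11 windows), and both strands were searched. These letters were in 2.71% of 32851 windows and in that of 1 of the 9 genes, Ppat. There the first base of the match lay at position 24 counted from the start site, in the stretch chr5:76951537-76951566 on the minus strand, shown with the match in capitals.
Ppat: caaaaagtggcGCGCATGCtgcaaggcccc
The GC box was in windows of all 9 genes and in 35.7% of all windows, and Hprt held 3 copies whose first bases lay at -29, -16 and -4. The E-box was in 7.15% of all windows and in 1 of the 9 genes, Impdh2, at -110. Each match is a run of letters in these windows and no evidence of binding.

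Hprt was high in BV+ cells and low in BV- cells. In CPM after TMM scaling it measured 19.9 and 13.2 in the libraries of BV+ NRF1 OE and 9.5 and 9.4 in those of BV+ Ctrl. In BV- cells it measured 1.3, 1.3 and 1.8 CPM with NRF1 OE and 1.3 and 2.6 CPM in Ctrl. Every BV+ library thus lay above every BV- library, and both BV+ NRF1 OE libraries lay above both BV+ Ctrl libraries, whereas NRF1 OE and Ctrl overlapped in BV- cells. Of all genes tested, 22.6% in Ctrl and 20.3% with NRF1 OE lay higher in BV+ than in BV- cells without overlap. For NRF1 OE above Ctrl in BV+ cells the share was 38.1%. The reads of Hprt were few in BV- cells, with 21, 18 and 31 counts in NRF1 OE and 21 and 48 in Ctrl, against 145 to 387 in BV+ cells. The library that was highest in BV- cells, Ctrl replicate 2, was still below the lowest BV+ library. On the scale of the deposited FPKM, which divides by gene length, Hprt lay above 77.9% of the tested genes in BV+ NRF1 OE replicate 1 and above 28.0% in BV- Ctrl replicate 1.

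The fitted log2 fold change of Hprt between BV+ and BV- was 2.26 ± 0.31 (SE) in Ctrl and 3.48 ± 0.27 in NRF1 OE, which is 4.79-fold and 11.1-fold. For NRF1 OE against Ctrl it was 0.81 ± 0.26 in BV+ cells and -0.41 ± 0.34 in BV- cells. The BV- value turned to 0.15 without BV- Ctrl replicate 2 and was -0.79 without BV- Ctrl replicate 1, so it has no settled direction. With offsets for GC content and length, these values were 1.08 in BV+ and -0.02 in BV- cells, and the BV+ value was 0.48 without BV+ NRF1 OE replicate 1. The difference between both NRF1 OE effects was 1.22 ± 0.43, and it lay between 0.71 and 1.59 when each library was left out in turn. The comparisons share libraries, so these values are not independent of each other. In bulk libraries, fewer cells with Hprt transcripts and less Hprt RNA per cell cannot be told apart.

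**Figure D1:**
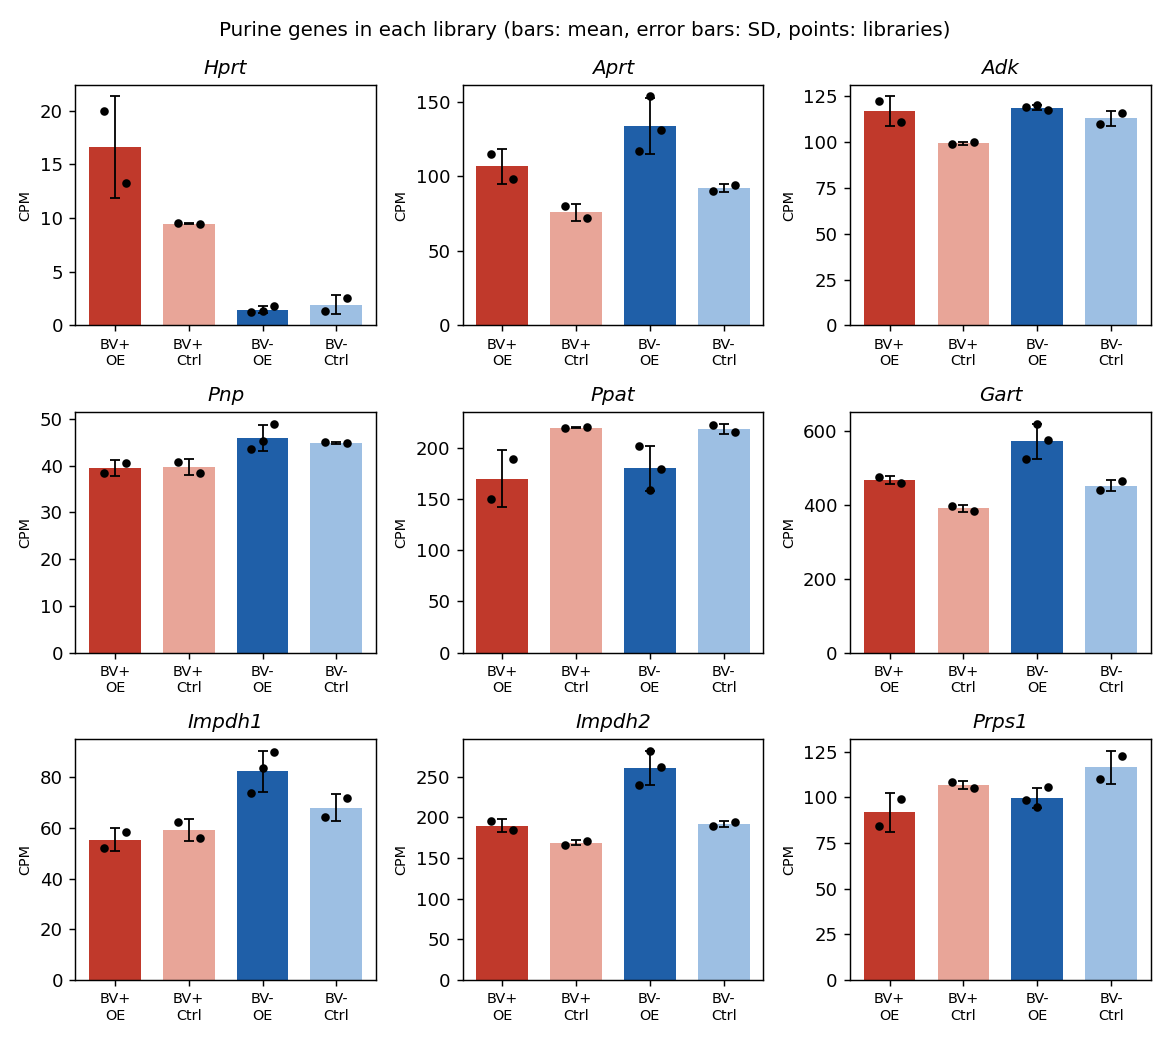
CPM (y axis, linear from 0) of the 9 purine genes in the 4 groups (x axis), with bars for the mean, error bars for the SD and a point for each library (n = 2, or 3 for BV- NRF1 OE). Hprt falls into a high BV+ and a low BV- pair of groups, with 9.4 CPM or more against 2.6 CPM or less, while the libraries of each of the other 8 genes differ by at most 2.14 times.

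The other genes did not share this spread. The highest library was 15.8 times the lowest for Hprt, and between 1.24 times (Adk) and 2.14 times (Aprt) for the other 8. Among the 16903 genes tested, 512 other genes (3.03%) had a spread at least as large as that of Hprt. Most of them were low in abundance: of the 10987 genes with a mean of at least 5 CPM, 36 others (0.328%) did. Hprt itself passed this cut only through its BV+ libraries, with a mean of 6.71 CPM and a median of 2.56 CPM. It was chosen for its level over the groups, so its place among all genes is a description. Over the 9 libraries, Pearson's r of log2 CPM with Hprt was negative for all 8, from -0.85 for Pnp, the phosphorylase that frees bases from inosine and guanosine, to -0.14 for Ppat. These 9 points share their groups and their libraries, and r is given as a description.

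Hprt also varied more than the genes that are used beside it as references. Among 12 common reference genes, the highest library was between 1.16 times (Sdha, a subunit of succinate dehydrogenase) and 2.90 times (B2m, the light chain of class I histocompatibility molecules) the lowest, with a median of 1.50. Hprt had the largest spread of the 13 on the CPM scale, on CPM by library size alone and on FPKM. After B2m came Tfrc, the transferrin receptor, with 2.24 times, while Tbp (1.28 times) and Pgk1 (1.20 times) were narrow. Gapdh lay between 31.7 and 53.8 CPM and Actb between 2045 and 3245 CPM.

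**Figure D2:**
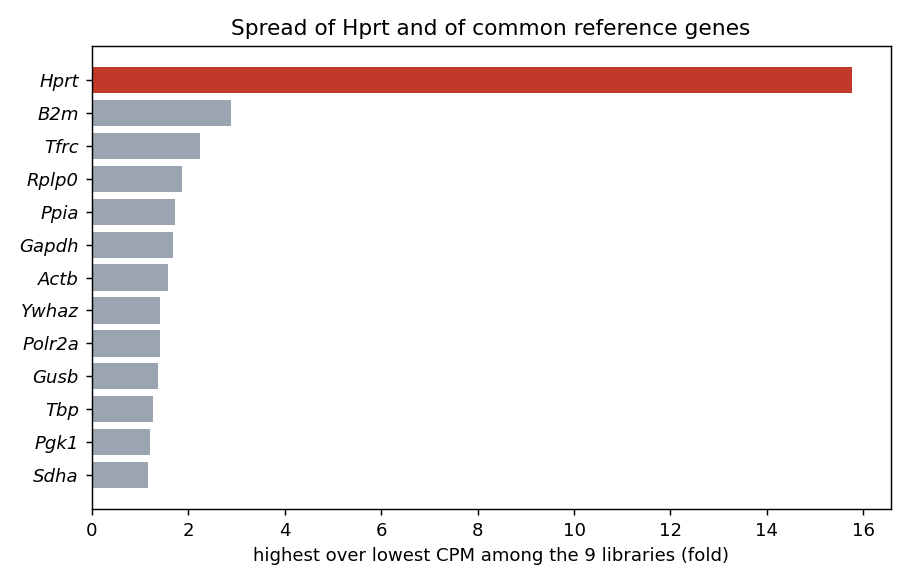
Highest over lowest CPM among the 9 libraries (x axis, fold, from 0) for Hprt and 12 reference genes (y axis). The bar of Hprt reaches 15.8 and the next, B2m, 2.90.

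By the edgeR quasi-likelihood test with Benjamini-Hochberg adjustment, 3 of the 12 reference genes rose with NRF1 OE in BV+ cells, namely B2m (log2 fold change 0.84), Rplp0 (0.63) and Actb (0.48), and 9 were not called, where 6.24% of all genes were called higher and 1.78% lower. In BV- cells 3 rose (Rplp0, Actb and Polr2a) and Tfrc fell, against 10.2% and 6.98% of all genes. Between BV+ and BV- cells with NRF1 OE, B2m (0.82 ± 0.16, adjusted p = 0.00549) was higher in BV+ cells, as were 9.9% of all genes by the same call, and no reference gene was called in Ctrl, where 0 had an unadjusted p under 0.05 and DESeq2 called 0, against 1.12% of all genes called by edgeR. Gusb, Ppia, Ywhaz, Gapdh, Tbp, Sdha and Pgk1 were not called in any of these comparisons. B2m lost the call between BV+ and BV- cells without BV+ NRF1 OE replicate 1 and with the replicate block. The 3 rises in BV+ cells were lost without BV+ NRF1 OE replicate 1, without either BV+ Ctrl library and with the replicate block, and Actb and Rplp0 also without BV- NRF1 OE replicate 3. All 4 calls in BV- cells were lost without BV- NRF1 OE replicate 3, without any 1 of the Ctrl libraries, in a fit of the 5 BV- libraries alone and with the replicate block.

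The genes whose log2 CPM ran most closely with that of Hprt over the 9 libraries, among 10986 genes with a mean of at least 5 CPM, were Grb10 (r = 0.995), Spry2 (0.994), Gucy1b1 (0.992), Nefm (0.991) and Zfp36l1 (0.987). They were picked for the highest r, so their r and their order over the libraries follow from the choice and are a description. Gucy1b1 passed the cut only through its BV+ libraries, with 5.8 to 18.0 CPM there and 0.5 to 0.9 CPM in BV- cells. Grb10 encodes an adaptor protein of receptor tyrosine kinases and is imprinted, Spry2 an inhibitor of receptor tyrosine kinase signalling, Gucy1b1 a subunit of soluble guanylate cyclase, Nefm a neurofilament subunit, and Zfp36l1 an RNA-binding protein that acts on AU-rich elements. Grb10 was similar to Hprt in size of change too: it had 405.4 and 268.9 CPM in BV+ NRF1 OE and 157.1 and 157.7 in BV+ Ctrl, against 27.7 to 50.6 in BV- cells, so that its CPM was 16.5 to 24.5 times that of Hprt in every library. Spry2 kept the order of the libraries but moved much less, between 56.7 and 82.6 CPM.

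**Figure D3:**
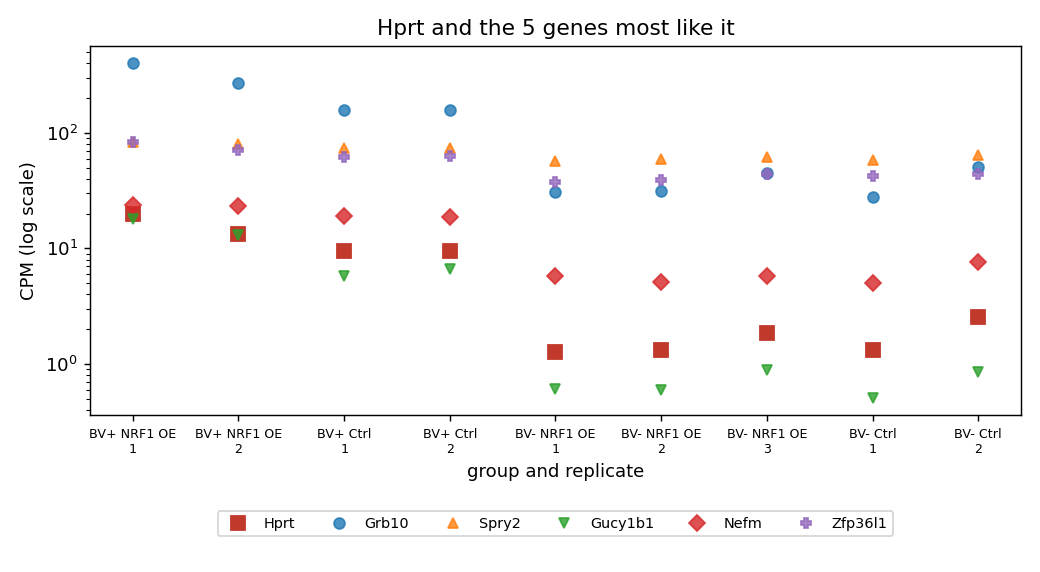
CPM (y axis, log scale) of Hprt and the 5 genes most like it in each of the 9 libraries (x axis, group and replicate). Squares mark Hprt and the other symbols the 5 genes, which were picked for their correlation with Hprt. The 4 BV+ libraries lie above the 5 BV- libraries for all 6 genes.

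The genes that neighbour Hprt on the X chromosome showed smaller differences between BV+ and BV- cells. The 4 protein-coding genes on each side are Gpc4, Gpc3, Ccdc160 and Phf6 on one side and Plac1, Fam122b, Fam122c and Mospd1 on the other, by the order in the GRCm38 annotation. Gpc3, a glypican of the cell surface, was the one with the largest differences: it had 126.1 and 193.3 CPM in BV+ NRF1 OE and 55.7 to 79.5 CPM in the other 7 libraries. It rose with NRF1 OE in BV+ cells by 1.04 ± 0.17 (adjusted p = 0.0133 by edgeR) and was higher in BV+ than in BV- cells with NRF1 OE by 1.31 ± 0.15 (adjusted p = 0.000184). Gpc4 (0.51 ± 0.11) and Mospd1 (0.81 ± 0.25, adjusted p = 0.0499) were also higher in BV+ cells with NRF1 OE, and Phf6, next to Hprt, fell by 0.68 with NRF1 OE in BV- cells. Of all genes, 9.9% were called higher in BV+ than in BV- cells with NRF1 OE. With NRF1 OE against Ctrl, 6.24% were called higher in BV+ cells and 6.98% lower in BV- cells. Gpc3 kept the call between BV+ and BV- cells under every alternative. It lost the call for NRF1 OE in BV+ cells without BV+ NRF1 OE replicate 1, without either BV+ Ctrl library and with the replicate block. Gpc4 was not called without BV+ NRF1 OE replicate 1 or with the replicate block. Phf6 was not called without BV- NRF1 OE replicate 3, without any 1 of the Ctrl libraries, in a fit of the 5 BV- libraries alone, or with the block or the offsets for GC content and length. Mospd1 was called only without BV- NRF1 OE replicate 1 or 2 among the fits with a library left out. It was not called with the replicate block or in a fit of the NRF1 OE libraries alone. Between BV+ and BV- cells in Ctrl, where Hprt differed 4.79-fold, Gpc3 differed by 0.48 ± 0.17 on the log2 scale (adjusted p = 0.405), and the other 6 neighbours tested had adjusted p-values of 0.958 or more. Fam122c had at most 3 counts in a library and was not tested.

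The sort itself was checked by germ cell markers. Prdm1, the gene of Blimp1 that drives the mVenus reporter, measured 53.3 and 56.4 CPM in BV+ NRF1 OE, 57.5 and 62.8 in BV+ Ctrl, 42.4 to 62.0 in BV- NRF1 OE and 57.3 and 58.6 in BV- Ctrl, so it did not separate BV+ from BV- libraries. Of 7 germ cell markers, 0 were called between BV+ and BV- cells in Ctrl by edgeR, with 2 at an unadjusted p under 0.05 and 0 called by DESeq2, and 1.12% of all genes were called. In Ctrl, 5 of the 7 lay lower in BV+ cells without overlap and 0 higher, against 25.4% and 22.6% of all genes. These numbers were 6 and 0 with NRF1 OE, against 19.5% and 20.3% of all genes. With NRF1 OE, 3 of the 7 were lower in BV+ cells (Dppa3 by a log2 fold change of -0.65, Tfap2c -0.43 and Nanos3 -1.04), as were 3.85% of all genes by the same call. Nanos3 kept this call under every alternative, Dppa3 lost it without BV+ NRF1 OE replicate 2, and Tfap2c was called only without BV- NRF1 OE replicate 3 among the fits with a library left out. The pluripotency gene Pou5f1 was at 798 to 1336 CPM in all libraries and was lower in BV+ cells with NRF1 OE by a log2 fold change of -0.52, a call lost without BV+ NRF1 OE replicate 1 or BV- NRF1 OE replicate 3 and with the replicate block. BV+ and BV- are therefore used here as the names of the sorted groups alone.

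Of the neuroectoderm markers, Nes was higher in BV+ cells in both comparisons with BV- cells, as the level of Hprt was. The summed level of Sox1, Pax6 and Nes was 110 to 162 CPM in BV+ NRF1 OE, 64.4 to 71.0 in BV+ Ctrl, 37.3 to 47.7 in BV- NRF1 OE and 29.6 to 38.5 in BV- Ctrl. The log2 fold change of Nes was 1.94 ± 0.30 in Ctrl, where 1.1% of all genes were called higher, and 2.96 ± 0.25 in NRF1 OE, where 9.9% were. Sox1 was called in NRF1 OE alone (0.93 ± 0.18), and Pax6 was called in neither. The log2 fold change of Pax6 between BV+ and BV- cells was 0.35 ± 0.15 in Ctrl. With NRF1 OE, Pax6 measured 11.3 to 11.6 CPM in BV+ cells and 9.1 to 9.5 CPM in BV- cells. Nes lost the call in Ctrl without BV+ Ctrl replicate 2 or BV- Ctrl replicate 1, and Sox1 lost its call without BV+ NRF1 OE replicate 1. The mesoderm list summed to 2.83 to 5.82 CPM in BV+ libraries and 0.88 to 1.33 CPM in BV- libraries, but its genes did not move together. Hand1 was the largest part of the BV+ sums, with means of 3.04 CPM in BV+ and 0.17 in BV- cells with NRF1 OE. T was also higher in BV+ cells, with means of 0.74 against 0.17 CPM with NRF1 OE and 0.54 against 0.11 in Ctrl. Tbx6 was higher in BV+ cells in Ctrl (0.90 against 0.32 CPM) but not with NRF1 OE (0.39 against 0.49). Mixl1 differed little (0.35 against 0.29 and, in Ctrl, 0.26 against 0.29). Of the 5 genes of the list 3 were tested, and Hand1 was called higher in BV+ than in BV- cells within NRF1 OE. The defining gene of the list, T, was at 0 to 0.82 CPM and Mesp1 at 0 to 0.12 CPM. The endoderm list summed to 10.7 to 21.3 CPM over all libraries, and 1 of its 5 genes, Afp, was lower in BV+ cells with NRF1 OE (-1.56), but not without BV+ NRF1 OE replicate 1. The part of these cell types in the level of Hprt was not tested.

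NRF1 OE in BV+ cells did not pass the test for any of the other 8 genes. In this comparison 8.02% of the 16903 genes were called, 6.24% higher and 1.78% lower with NRF1 OE, at an adjusted p under 0.05 by edgeR. Of the 8 genes, 0 were called, 4 had an unadjusted p under 0.05, as did 32.5% of all genes, and DESeq2 called 1. At the threshold of the paper, an unadjusted p under 0.05 together with a log2 fold change above 0.58 in size, 0 of the 8 were called in any of the 5 comparisons, where it took in 17%, 16%, 5.74%, 14.7% and 4.48% of all genes in the order of NRF1 OE in BV+, NRF1 OE in BV-, BV+ against BV- in Ctrl and in NRF1 OE, and the difference of both NRF1 OE effects. Aprt, the salvage enzyme of adenine, came nearest: it measured 114.9 and 98.3 CPM in BV+ NRF1 OE and 79.9 and 71.8 in BV+ Ctrl. Its groups did not overlap, and its log2 fold change was 0.49 ± 0.14 with an adjusted p of 0.0570. It was called by DESeq2 (adjusted p = 0.0289), without the filter on low counts (0.0207) and in a fit of the 4 BV+ libraries alone (0.0181). With offsets for GC content and length its log2 fold change was 0.07.

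Ppat, the amidotransferase at the head of de novo synthesis, went the other way. It measured 149.9 and 189.3 CPM in BV+ NRF1 OE against 219.2 and 219.9 in BV+ Ctrl, a log2 fold change of -0.37 ± 0.14 (adjusted p = 0.101). Its NRF1 OE libraries differed from each other by more than the higher of them differed from Ctrl. Prps1, the X-linked PRPP synthetase, was at 84.2 and 99.1 CPM against 108.3 and 105.0 (-0.22 ± 0.12, adjusted p = 0.226). Gart, the enzyme with 3 of the de novo activities in a single protein, was at 475.1 and 460.9 CPM against 396.8 and 384.4 (0.26 ± 0.11, adjusted p = 0.120), and Adk, adenosine kinase, at 122.5 and 111.1 CPM against 98.6 and 99.7 (0.24 ± 0.11, adjusted p = 0.147). Gart and Adk thus had both NRF1 OE libraries above both Ctrl libraries, as did 38.1% of all genes tested. For Pnp, Impdh1 and Impdh2 the log2 fold changes were -0.01, -0.10 and 0.17. With offsets for GC content and length, edgeR called Impdh1 lower (-0.46, adjusted p = 0.0393) and Adk higher (0.60, adjusted p = 0.0379) with NRF1 OE. Ppat was called lower without the filter on low counts (-0.40, adjusted p = 0.0400). It was also called lower in a fit of the BV+ libraries alone (-0.42, adjusted p = 0.0252).

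NRF1 OE in BV- cells was called for 3 of the 8 genes, all higher. In this comparison 17.2% of all genes were called, 10.2% higher and 6.98% lower. An unadjusted p under 0.05 was found for 5 of the 8 and for 39.1% of all genes. Aprt measured 116.7, 153.6 and 130.8 CPM in BV- NRF1 OE and 90.3 and 94.3 in BV- Ctrl. It rose by 0.53 ± 0.13 on the log2 scale (1.45-fold, adjusted p = 0.0338 by edgeR). Impdh2, the isoform of IMP dehydrogenase that predominates in dividing cells and sets the pace of GMP synthesis, measured 240.0, 281.8 and 262.1 CPM against 188.9 and 194.0. It rose by 0.45 ± 0.10 (1.36-fold, adjusted p = 0.0317). Gart measured 523.3, 618.4 and 577.3 CPM against 441.5 and 463.8, and rose by 0.34 ± 0.10 (1.27-fold, adjusted p = 0.0409). In all 3 genes every NRF1 OE library lay above both Ctrl libraries, as for 29.4% of all genes, and replicate 2 was the highest.

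The remaining genes were not called in BV- cells. Impdh1, the second IMP dehydrogenase, was at 73.9, 83.6 and 90.0 CPM with NRF1 OE and at 64.3 and 71.9 in Ctrl (0.28 ± 0.12, adjusted p = 0.119). Ppat was at 201.7, 158.2 and 179.1 CPM against 222.0 and 214.8 (-0.28 ± 0.13, adjusted p = 0.124), and Prps1 at 98.4, 94.4 and 105.4 CPM against 110.1 and 122.8 (-0.23 ± 0.11, adjusted p = 0.147). Both genes that handle PRPP at the head of the pathway thus had every NRF1 OE library below every Ctrl library in both populations, as did 32% of all genes tested in BV+ and 27.6% in BV- cells, and neither passed the test. With offsets for GC content and length, both directions turned in BV- cells, to 0.06 for Ppat and 0.02 for Prps1. Adk measured 118.8, 120.0 and 117.2 CPM against 110.0 and 115.8 (0.07 ± 0.10), and Pnp 43.5, 45.2 and 49.0 CPM against 45.1 and 44.8 (0.03 ± 0.11).

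These calls were not stable. None of the 3 was called with the replicate block, in a fit of the 5 BV- libraries alone, without BV- NRF1 OE replicate 3, or without any 1 of the 4 Ctrl libraries. Gart was also lost without BV- NRF1 OE replicate 2 and with scaling by library size alone (adjusted p = 0.0515), whereas Impdh1 and Ppat were called as well without BV- NRF1 OE replicate 1. The deviation of genes from their mean followed transcript GC content in 7 of the 9 libraries, with a Spearman's rho across 16662 genes of 0.03, 0.62 and 0.47 in BV- NRF1 OE, 0.28 and 0.02 in BV+ NRF1 OE, and -0.51 to -0.40 in Ctrl, so that BV- NRF1 OE replicate 1 and BV+ NRF1 OE replicate 2 showed next to no trend. Aprt has a transcript GC content of 58.9% and Gart of 53.0%, against 40.1% for Hprt and 37.5% for Adk. With offsets for GC content and length, the log2 fold changes of Aprt (0.11, adjusted p = 0.362) and Gart (0.16, adjusted p = 0.133) were no longer called, Impdh2 remained called (0.27, adjusted p = 0.0338), and Adk was called (0.68, adjusted p = 0.0272).

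**Figure D4:**
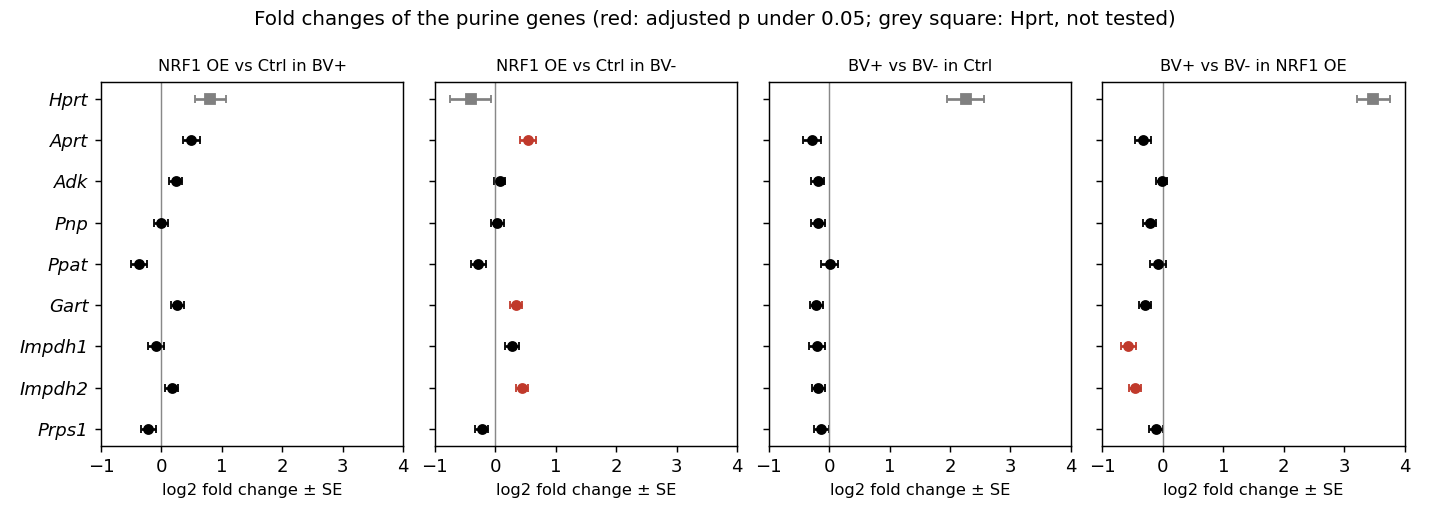
Log2 fold changes with SE (x axis) of the 9 genes (y axis) in 4 comparisons, with red points for an adjusted p under 0.05 by edgeR and grey squares for Hprt, which was not tested. Hprt lies at 2.26 and 3.48 in both comparisons of BV+ with BV- cells, while the other 8 genes lie between -0.57 and 0.53 in all 4.

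Between BV+ and BV- cells in Ctrl, 1.12% of all genes were called, 1.1% higher and 0.0237% lower in BV+ cells, and 0 of the 8 genes, with 0 at an unadjusted p under 0.05 (7.77% of all genes) and 0 by DESeq2. Of the 8, 7 had both BV+ libraries below both BV- libraries, the exception being Ppat, with log2 fold changes from -0.28 (Aprt) to -0.13 (Prps1). Of all genes tested, 25.4% lay lower without overlap in the same way and 22.6% lay higher. With NRF1 OE, 13.8% of all genes were called, 9.9% higher and 3.85% lower in BV+ cells, and 2 of the 8 genes were called, both lower. An unadjusted p under 0.05 was found for 4 of the 8 and for 28.2% of all genes. In BV+ cells 5 of the 8 lay lower without overlap and 0 higher, against 19.5% and 20.3% of all genes. Impdh1 measured 52.2 and 58.6 CPM in BV+ cells against 73.9, 83.6 and 90.0 in BV- cells, a log2 fold change of -0.57 ± 0.12 (adjusted p = 0.0101 by edgeR). Impdh2 measured 195.8 and 183.9 CPM against 240.0, 281.8 and 262.1, a log2 fold change of -0.46 ± 0.10 (adjusted p = 0.0108).

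Both genes of IMP dehydrogenase, which turns IMP towards GMP, were thus called lower in BV+ than in BV- cells with NRF1 OE. In Ctrl, where Hprt was also higher in BV+ cells, Impdh1 (-0.20) and Impdh2 (-0.18) were not called. Both calls with NRF1 OE were lost with the replicate block and in a fit of the 5 NRF1 OE libraries alone. They were also lost without BV+ NRF1 OE replicate 1 or BV- NRF1 OE replicate 3, and that of Impdh2 without BV+ NRF1 OE replicate 2. Gart differed by -0.29 ± 0.10 (adjusted p = 0.0697) and Aprt by -0.33 ± 0.13 (adjusted p = 0.129) on the log2 scale without being called. With offsets for GC content and length, 6 of the 8 genes were lower in BV+ cells, namely Aprt, Gart, Impdh1, Impdh2, Pnp and Ppat, where the share of all genes called also rose, from 2325 to 5094 genes.

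Whether NRF1 OE and Ctrl differed unequally in the sorted populations was tested as the BV+ effect minus the BV- effect. This difference was called for 0 of the 16903 genes by edgeR, with 932 (5.51%) at an unadjusted p under 0.05, and for 29 by DESeq2. Of the 8 genes, 0 had an unadjusted p under 0.05 and DESeq2 called 0. The differences ran from -0.37 ± 0.18 for Impdh1 to 0.16 ± 0.14 for Adk.

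Ratios between partner genes were taken next. They are given on the deposited FPKM scale, which divides by length. Aprt was 4.60 to 5.93 times Hprt in BV+ NRF1 OE and 6.07 to 6.71 times in BV+ Ctrl, but 29.4 to 54.3 times in BV- Ctrl and 56.8 to 92.4 times in BV- NRF1 OE. Impdh2 was 2.86 to 4.01 times Impdh1 in every library. Prps1 was 3.44 to 3.66 times Prps2, the second PRPP synthetase gene on the X chromosome, in the 4 Ctrl libraries and 4.15 to 6.42 times in the 5 NRF1 OE libraries. Paics, which catalyses 2 later steps of de novo synthesis, was 4.02 to 4.27 times Ppat in the Ctrl libraries and 4.46 to 5.58 times in the NRF1 OE libraries. For both of these ratios NRF1 OE and Ctrl did not overlap, but the share of all gene pairs that did so was not counted. Of single genes tested, 38.1% lay higher and 32% lower without overlap with NRF1 OE in BV+ cells. In BV- cells these shares were 29.4% and 27.6%. Transcript GC content was 45.0% for Prps1, 42.0% for Prps2, 48.1% for Paics and 44.1% for Ppat, and its part in the ratios was not tested.

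The pathway was then taken as a list of 53 purine genes without Hprt, 46 of which were tested. With NRF1 OE in BV+ cells 1 rose and 0 fell, where 6.24% of all genes were called higher and 1.78% lower, and the median log2 fold change was 0.06, against 0.04 over all genes tested. The gene that rose was Adssl1, the muscle-type adenylosuccinate synthase, which is also known as Adss1. It measured 16.6 and 11.2 CPM in BV+ NRF1 OE, 4.7 and 4.4 in BV+ Ctrl, 1.7, 3.8 and 2.1 in BV- NRF1 OE and 1.3 and 2.3 in BV- Ctrl. Like Hprt it was highest in the BV+ NRF1 OE libraries, next in BV+ Ctrl and lowest in BV- cells, and its highest library was 13.2 times its lowest. Its log2 fold change was 1.62 ± 0.33 (adjusted p = 0.0235) for NRF1 OE in BV+ cells and 2.48 ± 0.32 (adjusted p = 0.000318) for BV+ against BV- cells with NRF1 OE. The second call held under every alternative, and the first was lost without BV+ NRF1 OE replicate 1 or either BV+ Ctrl library and with the replicate block. Adss, the broadly expressed isozyme, was at 109.5 to 168.7 CPM and was not called.

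With NRF1 OE in BV- cells 12 of the 46 rose and 2 fell, a share of 10.2% and 6.98% over all genes being called in the same directions, and the median was 0.19 against 0.01. Besides Aprt, Gart and Impdh2, the genes that rose, with their log2 fold changes, were Adsl (0.41) and Atic (0.34) of de novo synthesis, the PRPP synthetase-associated protein Prpsap1 (0.43), the nucleotide kinases Ak1 (0.61), Guk1 (0.45), Nme1 (0.40) and Nme2 (0.55), the equilibrative nucleoside transporter Slc29a2 (0.51) and Shmt2, which feeds the mitochondrial one-carbon pool (0.38). Reads of Nme1 and Nme2 are uncertain because an annotated read-through gene overlaps both. Prps2 fell by 0.79 ± 0.19 (adjusted p = 0.0334), from 62.3 and 65.3 CPM in BV- Ctrl to 39.1, 28.6 and 42.6 in BV- NRF1 OE. In BV+ cells it measured 58.5 and 56.7 CPM in Ctrl and 29.4 and 46.5 with NRF1 OE (-0.60 ± 0.21, adjusted p = 0.0897). The other gene that fell, Nt5e, the cell-surface 5′-nucleotidase, had 3 to 7 counts per library in BV- NRF1 OE. None of these 14 genes was called without BV- NRF1 OE replicate 3, without any 1 of the Ctrl libraries, in a fit of the 5 BV- libraries alone or with the replicate block, and 5 of them remained called with offsets for GC content and length. Paics did not pass the test, with 548.6 to 660.9 CPM over all libraries.

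Between BV+ and BV- cells in Ctrl, 0 of the 46 were called by edgeR, with 2 at an unadjusted p under 0.05 and 0 by DESeq2. Of all genes, 1.12% were called by edgeR and 7.77% had an unadjusted p under 0.05. A negative log2 fold change was found for 37 of the 46 and for 8786 of the 16903 genes tested. The median was -0.11 against -0.01 over all genes. With NRF1 OE, 1 was higher (Adssl1) and 7 were lower in BV+ cells, against 9.9% and 3.85% of all genes, with a median of -0.20 against -0.005 over all genes. The 7 were Impdh1, Impdh2, Pfas of de novo synthesis (-0.35), Guk1, which phosphorylates GMP (-0.44), the nucleoside transporters Slc29a1 (-0.55) and Slc28a1 (-0.51), and Shmt1 of the cytosolic one-carbon pool (-0.36). Of these 8 calls, 1, that of Adssl1, remained without BV+ NRF1 OE replicate 1 or BV- NRF1 OE replicate 3, in a fit of the 5 NRF1 OE libraries alone and with the replicate block. With offsets for GC content and length 25 of the 46 were called, among them all 8. The genes of the final breakdown to uric acid had few reads: Xdh had at most 4 counts in a library and Gda at most 10, and both failed the filter.

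**Figure D5:**
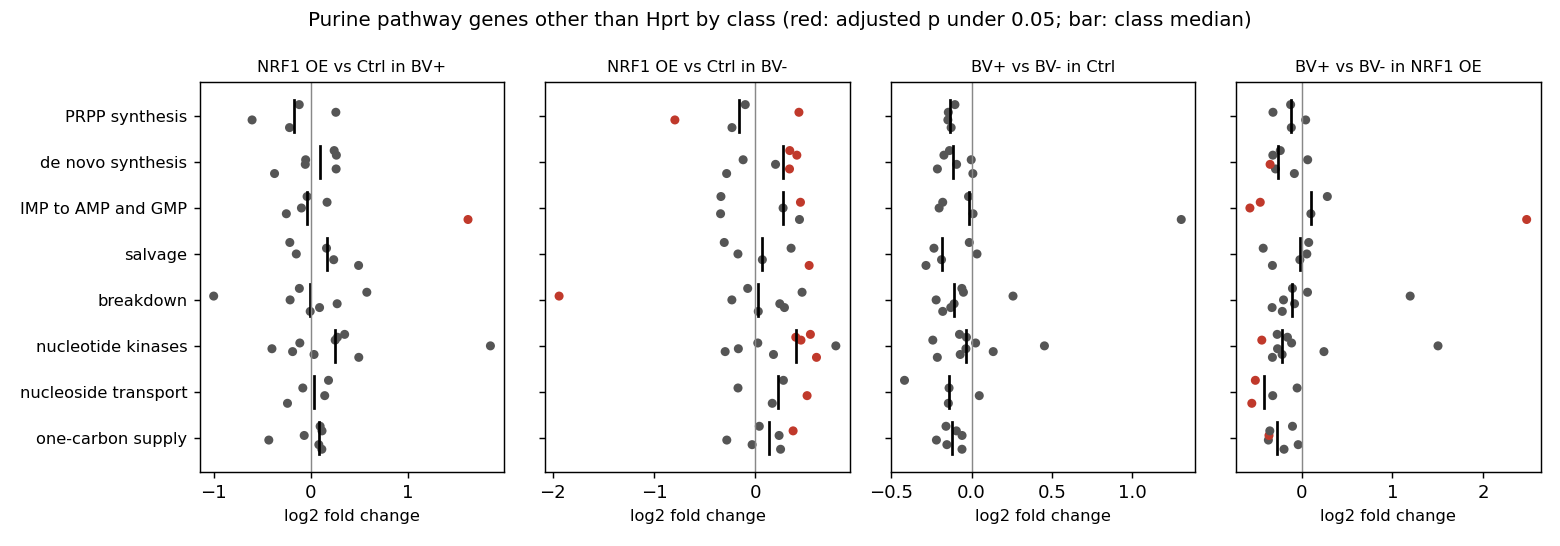
Log2 fold changes (x axis, 1 scale per panel) of the 46 tested purine genes without Hprt, grouped by class (y axis), in 4 comparisons, with red points for an adjusted p under 0.05 by edgeR and a bar for the median of each class. In BV- cells 12 points are red on the higher side with NRF1 OE, and in BV+ against BV- cells with NRF1 OE 7 are red on the lower side and 1, Adssl1, on the higher side.

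Several of these genes share sequence or position with others, which limits their counts. Impdh2 has a processed pseudogene, Impdh2-ps, whose FPKM was 1.25 to 1.40 times that of Impdh2 in every library, so reads may be split between them. With both summed, the rise with NRF1 OE in BV- cells was 0.42 ± 0.10 (adjusted p = 0.0317) and the difference between BV+ and BV- cells with NRF1 OE was -0.45 ± 0.10 (adjusted p = 0.00914). In the GRCm38 annotation Ppat overlaps Paics on the opposite strand, Aprt overlaps Gm20388, Impdh2 overlaps Ndufaf3, Gart overlaps the antisense gene Gm15964 and Pnp overlaps Pnp2 and Gm49342 on the same strand. Whether the counting used the strand is not stated, so reads of such pairs cannot be told apart. No overlapping gene was found for Hprt, Impdh1 or Prps1.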

How the data were processed

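The poly(A) RNA-seq tables of 9 libraries were used. Per the submitters' processing notes and the paper's methods, trimmed reads were aligned by HISAT2 2.0.1 on GRCm39, and HTSeq 0.6.1 assigned them to Ensembl genes. The deposited counts are raw reads per gene, and the authors also deposited FPKM, which divide by gene length and library size. FPKM were used for levels compared between genes, and counts for every test. The strand setting is not given in the sources used here.

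Counts were analysed in R 4.3.3 with edgeR 4.0.16: TMM factors, the filterByExpr filter, and the two-sided quasi-likelihood F test in 1 fit of 9 libraries with 4 group terms, with Benjamini-Hochberg adjustment over 16903 genes. A gene was called at an adjusted p under 0.05, with a prior count of 2 for log2 CPM. The fit was tested on simulated data. Alternatives were DESeq2 1.42.0, other scaling factors, no filter, the replicate number as a block, offsets for GC content and length, only the groups compared, each library left out, and the paper's threshold (p under 0.05 before adjustment and a log2 fold change above 0.58 in size). Transcript GC content, length, overlaps and gene order were taken by identifier from a GRCm38 annotation, and promoters from RefSeq on GRCm38.p6, since no GRCm39 reference was used here. Figures were drawn with matplotlib 3.10.9.

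The 9 genes and the lists of purine genes, reference genes and markers were chosen with earlier results of these data known. The text names the 9 genes, purine genes called in any comparison, their partners Paics and Prps2, the reference genes, up to 3 further examples of each list, the 5 genes most like Hprt with a mean of at least 5 CPM, and 4 protein-coding neighbours on each side. Groups and replicate numbers came from the labels. ChIP-seq data were not analysed here, and other common reference genes were left out and are not reported here.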

Additional observations from a re-analysis of the deposited data

How the results depend on the processing

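With 2 or 3 libraries in a group, the counts of calls moved with the fit. All genes are given first, then the 8 genes without Hprt, then the 46 purine genes. For NRF1 OE in BV+ cells, from 1355, 0 and 1, DESeq2 called 2126, 1 and 4, the fit without a filter 3440, 2 and 5, the offsets for GC content and length 2204, 2 and 6, and the fit of only the groups compared 4371, 2 and 8, and the paper's threshold 2870 and 4 of all and purine genes. For NRF1 OE in BV- cells, from 2910, 3 and 14, only the groups compared gave 0, 0 and 0, the paper's threshold 0 of the 8 and 3 of the purine genes, no filter 4392 genes and the offsets 1378. For BV+ against BV- cells in Ctrl, from 190, 0 and 0, only the groups compared gave 890, 1 and 3, DESeq2 306 genes, no filter 529 and 1 purine gene, the offsets 291 and 1, and the paper's threshold 971 and 1. For BV+ against BV- cells in NRF1 OE, from 2325, 2 and 8, only the groups compared gave 1260, 0 and 1, the offsets 5094, 6 and 25, and the paper's threshold 0 and 3 of the 8 and the purine genes. For the difference of both effects, from 0 genes, DESeq2 called 29, no filter 108 and the paper's threshold 757 and 1 purine gene. The cause of these changes was not tested, except that fewer libraries enter the fit of only the groups compared.

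Whether the replicate numbers pair the libraries could not be settled. The deviations of same-numbered libraries correlated at -0.03 in NRF1 OE against Ctrl in BV+ and at 0.20 and 0.24 in BV-. Between BV+ and BV- cells they correlated at -0.10 in Ctrl, and at -0.14 and -0.30 in NRF1 OE. Where both groups have 2 libraries, the deviations mirror each other, so both replicate numbers give the same value. With the replicate block, 3 genes and 0 purine genes were called for NRF1 OE in BV+, 0 of all, of the 8 and of the purine genes in BV-, 121 genes in Ctrl, and 1064, 0 and 1 in BV+ against BV- with NRF1 OE. On the 4 Ctrl libraries alone the block called 823 genes, and 2079 with crossed numbers, an alternative chosen after seeing the data.

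Leaving out each library in turn gave 0 to 4957 genes, 0 to 2 of the 8 and 0 to 8 purine genes for NRF1 OE in BV+; 0 to 5847, 0 to 5 and 0 to 27 in BV-; 31 to 484, 0 and 0 to 1 in Ctrl; 786 to 3182, 0 to 4 and 1 to 16 with NRF1 OE; and 0 to 33 genes for the difference.

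Small log2 fold changes that were not called turned direction. For NRF1 OE in BV+, Pnp was 0.000589 with DESeq2, 0.000409 with DESeq2 size factors and 0.140 with offsets. In BV-, Pnp was -0.00703 by library size alone and -0.0183 with the replicate block, and with offsets Ppat was 0.0602, Impdh1 -0.0923 and Prps1 0.0202. In Ctrl, Ppat was -0.00910 with DESeq2 and with its size factors and -0.104 with offsets. With NRF1 OE, Adk was 0.000843 by library size alone and 0.0129 with only the groups compared. In the difference, Prps1 was -0.0358 with upper-quartile factors, -0.0105 without a filter and -0.0797 with offsets, Pnp 0.0121 with the replicate block and Adk -0.0746 with offsets. Leaving out a library gave Pnp -0.0486 to 0.0420 in BV+ and -0.0223 to 0.0707 in BV-, Ppat -0.0416 to 0.0374 in Ctrl, and Adk -0.0948 to 0.0452 and Ppat -0.263 to 0.0754 with NRF1 OE. In the difference it gave Aprt -0.159 to 0.0746, Pnp -0.0808 to 0.0279, Ppat -0.270 to 0.0674 and Prps1 -0.112 to 0.122. The low counts of Hprt in BV- cells limit its NRF1 OE effect there.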
